A study of Homo sapiens with 29 samples.

Results

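The genes described here encode parts of the machinery that moves membrane and protein between compartments of the cell, measured in HepG2 cells given an extract of a herb and in untreated HepG2 cells. They were chosen by name alone, as every gene whose symbol starts with RAB, SNX, SEC, ARF or STX and a digit, or with COP and A, B, E, G or Z. This gave 85 of the 14884 genes with a named probe set, of which 58 were bright enough to be tested among 6365 genes. A single symbol was held for 16098 of the 53617 probe sets. Genes without such a probe set were not examined, whether or not the array measures them. Despite the RAB and COP prefixes, RAB6D, at a mean log2 expression of 1.753, was the one RAB GTPase gene among the 85 and the non-coding COPG2IT1, at 2.004, the one COP gene. The members that carry the results are therefore syntaxins, sorting nexins, SEC genes, ARF GTPases and binding partners of RAB GTPases.

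HepG2 is an established human cell line grown from a liver tumour. Treated cells received CCL, short for Cratoxylum cochinchinense Lour. (a herb), for 6, 12, 18, 24 or 48 h (3, 3, 3, 2 and 2 arrays), and the untreated cells were cultured without it for 0, 6, 12, 18, 24 or 48 h (2, 3, 3, 2, 3 and 3 arrays). No genetic change separates the groups, and the labels name neither a dose nor a solvent given to untreated cells, so effects of CCL and of handling during treatment cannot be told apart. Values are log2 expression on Affymetrix arrays, so that a difference of 1 is a doubling, and for arrays the number of arrays limits the precision.

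The labelled cell type was checked against marker genes. The 12 hepatocyte lineage genes with a named probe set had mean log2 levels from 7.15 to 11.94, with ALB at 11.94, while the 5 fibroblast and endothelial genes lay between 1.94 and 2.73. Of 5 leukocyte genes, CD14 (2.95) and CSF1R (2.98) were low, but LYZ (10.63) and CD68 (8.77) were high in this line. Both CD68 and LAPTM5 rose with CCL by 1.02 on the log2 scale, with LAPTM5 dim at a mean level of 4.60. Of 12 hepatocyte genes 4 fell and 1 rose, against 19.2% and 16.7% of all genes tested. The part of these markers in the results below was not tested. Before normalization across arrays, 6 arrays had medians over 0.1 from the median of their time, namely untreated cells at 18 h and 24 h (set 1), and CCL-treated cells at 6 h, 24 h and 48 h (set 1) and 18 h (set 3), where the set is the number in the labels. Counts are given with and without them.

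Traffic between compartments runs on vesicles. SEC proteins of the translocon bring new proteins into the endoplasmic reticulum, COPII coats built from other SEC proteins carry them out, and ARF GTPases recruit coats at the Golgi and cell surface. RAB GTPases and their effectors mark and tether each membrane, sorting nexins bend and sort endosomal membrane, and syntaxins are the target SNAREs that let a vesicle fuse. Hepatocytes depend on this route because they secrete most plasma proteins and keep separate apical and basolateral surfaces.

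Arrays of whole cultures read RNA over all cells, so fewer cells of a kind and less RNA per cell cannot be told apart. Averaged over the 5 times, CCL raised 11 of the 58 tested genes and lowered 6 (limma, adjusted p under 0.05). That is 19% higher against 16.7% of all genes tested, 10.3% lower against 19.2%, and 29.3% called either way against 35.9%. The risers were the syntaxins STX3, STX7, STX1A, STX4 and STX2, the sorting nexins SNX9 and SNX33, the lipid-binding protein gene SEC14L6, the GTPase ARF6, and the RAB partners RAB3GAP2 and RAB5IF. Those that fell were RAB30-DT, RAB11B-AS1, SEC11C, SEC22B, RAB11FIP4 and RAB11FIP3. Of the 58 genes, 3 passed the level filter on CCL arrays only and 0 on untreated arrays only. The risers STX1A and SEC14L6 are among these 3, so the filter itself favoured them in the count of genes that rose. RAB30-DT, which fell, exceeded log2 5 on 1 CCL array and 12 untreated arrays. The filter needed 2 arrays, so it favoured RAB30-DT in the count of genes that fell. RAB11B-AS1 exceeded that level on 3 CCL and 11 untreated arrays. The median log2 fold change was -0.01 in the 58 genes and -0.01 in all genes tested, and the median size of the difference, whatever its sign, was 0.13 against 0.18. On the deposited values, without normalization across arrays, 7 rose and 4 fell, against 13.6% and 11% of all genes and 24.6% either way. Without the 6 arrays that stood apart, 8 rose and 1 fell (9 of 58, against 23.8% of all genes tested), the 9 being STX3, STX1A, STX4, SNX9, SNX33, SEC14L6, RAB30-DT and 2 genes not called with all arrays.

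**Figure D1:**
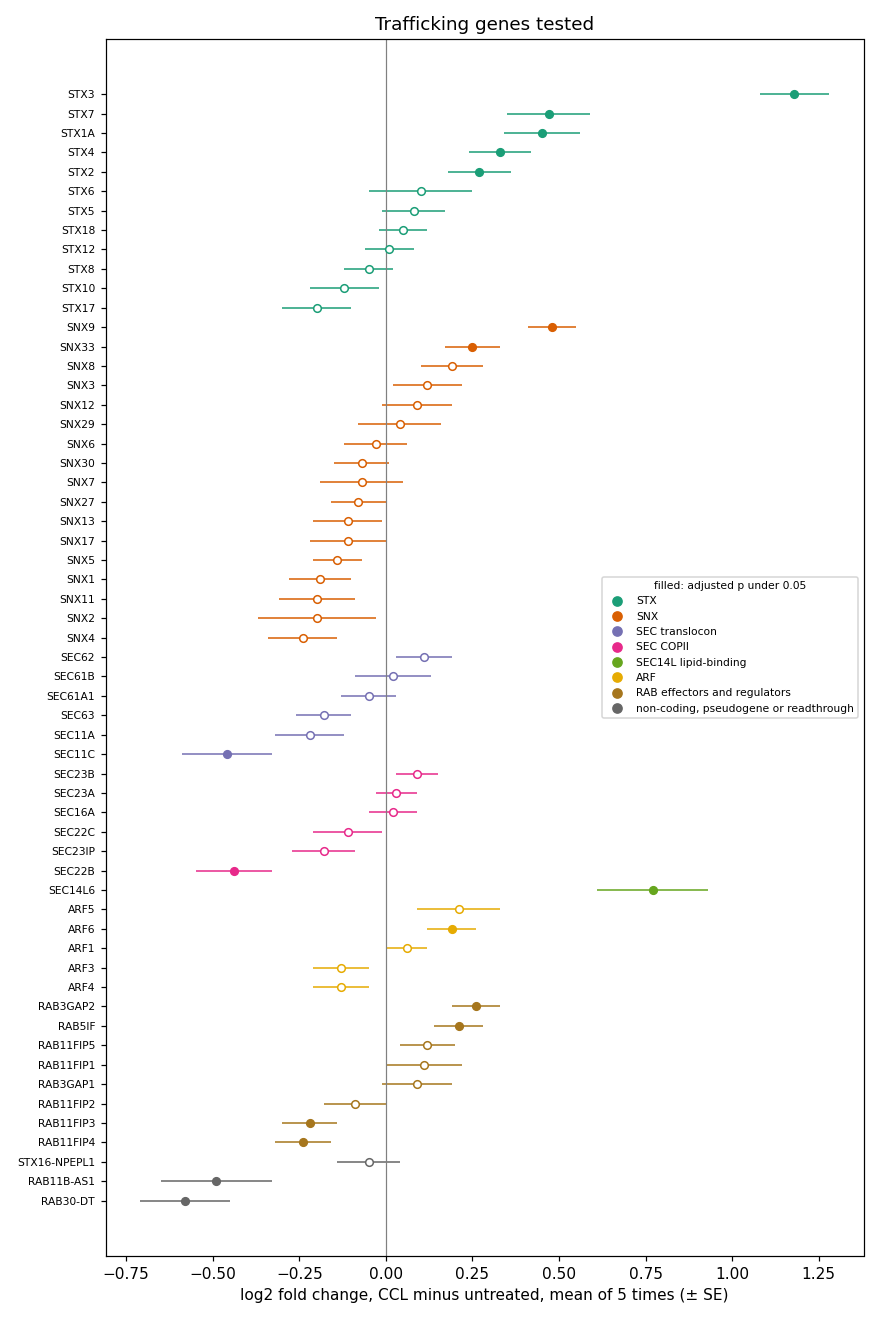
Mean log2 fold change (CCL minus untreated, averaged over 5 times, horizontal axis, bars ± SE) of the 58 tested trafficking genes, grouped by class down the page; filled points have an adjusted p under 0.05. STX3 stands at 1.18, SEC14L6 at 0.77, and most other genes lie near 0.

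**Figure D2:**
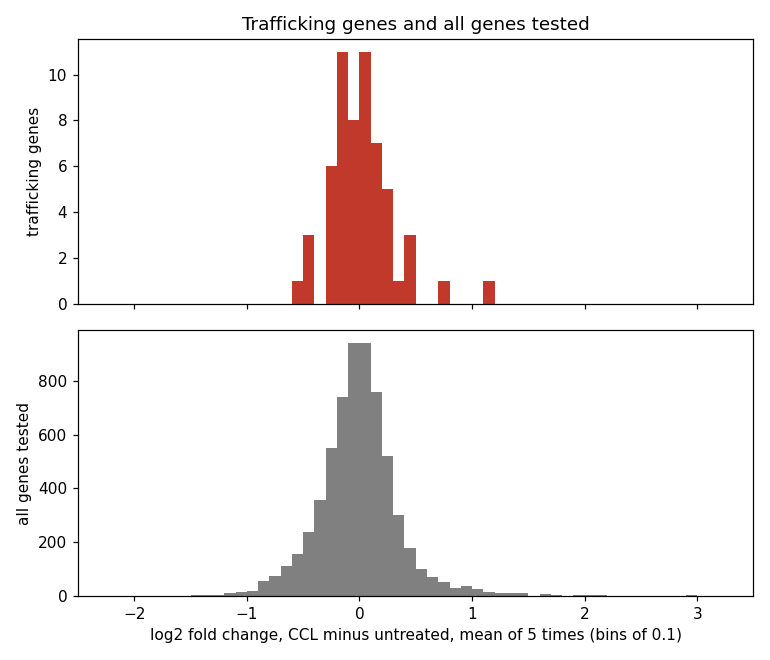
Number of genes per bin of 0.1 in the same log2 fold change, for the 58 trafficking genes (top) and all 6365 genes tested (bottom). Both are centred at -0.01, and STX3 is the farthest trafficking gene on the right.

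STX3 and SNX9 had the lowest adjusted p among protein-coding risers, and SEC22B and SEC11C among those that fell. Their promoters are shown to set the 2 directions side by side, as 300 bases on GRCh38.p14 from RefSeq, 250 before the annotated start and 50 after it. Capitals mark any match, on either strand, to CACGTG (the E-box core), to CCACG (found in several stress response elements), to CCAAT (the site of NF-Y), to TGANTCA (the AP-1 site) or to TGACGT (the core of the cAMP response element). The windows are chr11:59755126-59755425 (+) for STX3, chr6:157822996-157823295 (+) for SNX9, chr1:120176471-120176770 (-) for SEC22B and chr18:59139634-59139933 (+) for SEC11C.
STX3: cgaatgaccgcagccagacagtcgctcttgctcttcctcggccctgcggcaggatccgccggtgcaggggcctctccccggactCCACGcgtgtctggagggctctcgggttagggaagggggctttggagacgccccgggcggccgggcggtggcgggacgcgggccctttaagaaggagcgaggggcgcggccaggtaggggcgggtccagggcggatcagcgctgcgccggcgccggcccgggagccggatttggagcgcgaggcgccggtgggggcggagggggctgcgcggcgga
SNX9: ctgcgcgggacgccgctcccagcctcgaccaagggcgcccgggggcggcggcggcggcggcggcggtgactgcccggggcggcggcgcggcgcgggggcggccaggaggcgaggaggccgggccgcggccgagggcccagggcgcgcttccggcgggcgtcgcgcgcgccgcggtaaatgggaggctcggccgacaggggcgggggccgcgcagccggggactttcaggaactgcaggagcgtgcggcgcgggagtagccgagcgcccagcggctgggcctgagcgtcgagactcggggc
SEC22B: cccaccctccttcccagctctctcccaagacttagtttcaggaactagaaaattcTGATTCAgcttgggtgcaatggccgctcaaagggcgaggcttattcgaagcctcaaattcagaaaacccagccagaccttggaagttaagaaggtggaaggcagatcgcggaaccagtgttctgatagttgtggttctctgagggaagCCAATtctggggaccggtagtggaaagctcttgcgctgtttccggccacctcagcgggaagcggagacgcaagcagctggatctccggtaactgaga
SEC11C: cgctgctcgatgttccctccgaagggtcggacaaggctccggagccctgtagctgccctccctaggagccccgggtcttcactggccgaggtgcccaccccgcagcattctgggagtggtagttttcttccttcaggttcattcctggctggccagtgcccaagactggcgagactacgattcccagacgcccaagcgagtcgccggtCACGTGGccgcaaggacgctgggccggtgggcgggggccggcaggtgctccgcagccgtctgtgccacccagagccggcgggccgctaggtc
STX3 held 1 CCACG, 166 bases before the start, and SNX9 held none of the 5 motifs in a window of 82.3% G and C. SEC22B, at 53.3% G and C, held an AP-1 match 195 bases before the start and CCAAT 47 bases before it. SEC11C held an E-box core 42 bases before the start, which overlaps a reverse-strand CCACG.

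Across the class, promoters were found for 52 of the 58 tested genes, with a median G and C content of 67.7% against 58.3% in all 27305 promoters. TGACGT was in 26.9% of the 52 against 8.32% of all promoters, CCACG in 50% against 37.9%, and CACGTG in 13.5% against 7.43%. CCAAT was in 26.9% against 35.7%, and TGANTCA in 5.77% against 7.76%. Among the 11 risers 8 had CCACG and none had TGANTCA, while among the 5 that fell and have a promoter here 1 had each of these. A match is a description of letters in these windows, and the shares were not tested. The 27305 promoters are not limited to genes bright enough to be tested, and their G and C content differs. Traits of trafficking genes and of tested genes in general cannot be told apart here.

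STX3 encodes a syntaxin of the apical plasma membrane of epithelial cells. At 6 h its log2 expression was 6.48, 6.59 and 6.42 on the CCL arrays and 6.21, 5.92 and 5.66 on the untreated ones. At 12 h it was 6.92, 6.83 and 6.53 with CCL and 6.07, 5.96 and 5.47 in untreated cells. Already at these times the arms did not overlap. At 18 h the CCL arrays read 6.92, 6.74 and 7.01 and the untreated ones 5.86 and 5.32. At 24 h they read 7.34 and 6.64 with CCL and 5.57, 5.08 and 5.22 in untreated cells, and at 48 h 7.09 and 6.38 with CCL and 5.32, 5.30 and 5.40 in untreated cells. All 13 CCL arrays lay above all 14 untreated arrays of the 5 times, whose highest value was 6.21.

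The STX3 difference at 6 h was 0.57 ± 0.21 (SE) and was not called (limma adjusted p = 0.228). It rose at the 4 later times, by 0.93 ± 0.21 at 12 h (adjusted p = 0.0171), 1.29 ± 0.24 at 18 h (0.00201), 1.70 ± 0.24 at 24 h (0.000132) and 1.40 ± 0.24 at 48 h (0.000992). Averaged over the times it was 2.26-fold higher (log2 1.18 ± 0.10, adjusted p = 1e-08), rank 60 of 6365 genes from the top. The highest group mean was that of CCL-treated cells at 24 h, 6.99 ± 0.49 (SD, n = 2), against 5.29 ± 0.25 in untreated cells at 24 h (n = 3). The F-test of whether the effect differed between the times was not called (adjusted p = 0.632). The 12 h call was lost without untreated set 3 or CCL set 1 or 2 (adjusted p up to 0.162), and the 48 h call without CCL set 1 (1.04, adjusted p = 0.142).

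Among the other syntaxins, STX4, of the basolateral plasma membrane, ran from 6.27 to 7.03 on the CCL arrays (median 6.72) and from 6.11 to 6.83 on the untreated ones (median 6.35). It rose by 0.33 ± 0.09 (limma adjusted p = 0.00533), with overlapping arms. STX2, another plasma membrane syntaxin, had medians of 6.54 with CCL and 6.20 in untreated cells and rose by 0.27 ± 0.09 (0.0251), a call absent on the deposited values (0.28, 0.0995). STX1A, best known from synapses, was dim, from 4.30 to 5.82 with CCL (median 4.77) and from 4.18 to 4.81 in untreated cells (median 4.42). It rose by 0.45 ± 0.11 (0.00226), and it entered the test through 4 CCL arrays and no untreated array above log2 5.

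STX7, a syntaxin of late endosomes, ran from 6.52 to 7.46 with CCL (median 7.19) and from 6.25 to 7.34 in untreated cells (median 6.70), so the arms overlapped. It rose by 0.47 ± 0.12 (limma adjusted p = 0.00376) and was higher at each of the 5 times, but without the 6 arrays that stood apart the value was 0.27 (0.159). The 8 other tested syntaxin symbols were not called. Among them STX8, an endosomal partner of STX7 and the brightest syntaxin at a mean of 7.48, differed by -0.05 (95% interval -0.19 to 0.10). STX5 of the Golgi differed by 0.08 (-0.10 to 0.26), STX18 of the endoplasmic reticulum by 0.05 (-0.09 to 0.19), STX12 of recycling endosomes by 0.01 (-0.13 to 0.15) and STX17, which serves autophagosomes, by -0.20 (-0.40 to 0.01). In all, 5 of 13 tested syntaxin symbols rose and 0 fell, against 16.7% and 19.2% of all genes tested, with a median of 0.08. The 5 include STX1A, which was tested through CCL arrays alone.

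SNX9 encodes a sorting nexin with SH3 and BAR domains that works with dynamin when clathrin-coated vesicles pinch off. Its CCL arrays ran from 7.89 to 8.54 (median 8.23) and its untreated arrays of the 5 times from 7.55 to 8.0 (median 7.72). At every one of the 5 times all CCL arrays lay above all untreated arrays, and 12 of 13 CCL arrays lay above every untreated array. At 6 h, for example, it read 8.39, 7.89 and 8.06 with CCL, against 7.62, 7.65 and 7.55 in untreated cells. Averaged over the times it was 1.39-fold higher (0.48 ± 0.07, limma adjusted p = 2.39e-05), between 0.38 at 12 h and 0.60 at 48 h. Single times reached the threshold at 48 h only (0.0234), and without CCL 48 h set 1 that value was 0.34 (0.9).

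SNX33, a close relative of SNX9 with the same domains, had medians of 5.93 with CCL and 5.70 in untreated cells. It rose by 0.25 ± 0.08 (limma adjusted p = 0.0182), with arms that overlapped except at 48 h; the call was lost without CCL 48 h set 1 (0.0526) or untreated 18 h set 3 (0.0574). The third member of that subfamily, SNX18, was above log2 5 on 1 array (mean 4.449) and was not tested. The other 15 tested sorting nexins were not called, and their differences ran from -0.24 (SNX4) to 0.19 (SNX8). SNX1, SNX2, SNX5 and SNX6, which form the membrane coat that works beside retromer in endosome-to-Golgi return, differed by -0.19, -0.20, -0.14 and -0.03. SNX6, the brightest sorting nexin at 9.194, had a 95% interval from -0.21 to 0.15. SNX27 and SNX17, which return receptors to the cell surface, differed by -0.08 and -0.11, and SNX3 by 0.12. In all, 2 of 17 tested SNX genes rose and 0 fell, against 16.7% and 19.2% of all genes tested, with a median of -0.07.

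**Figure D3:**
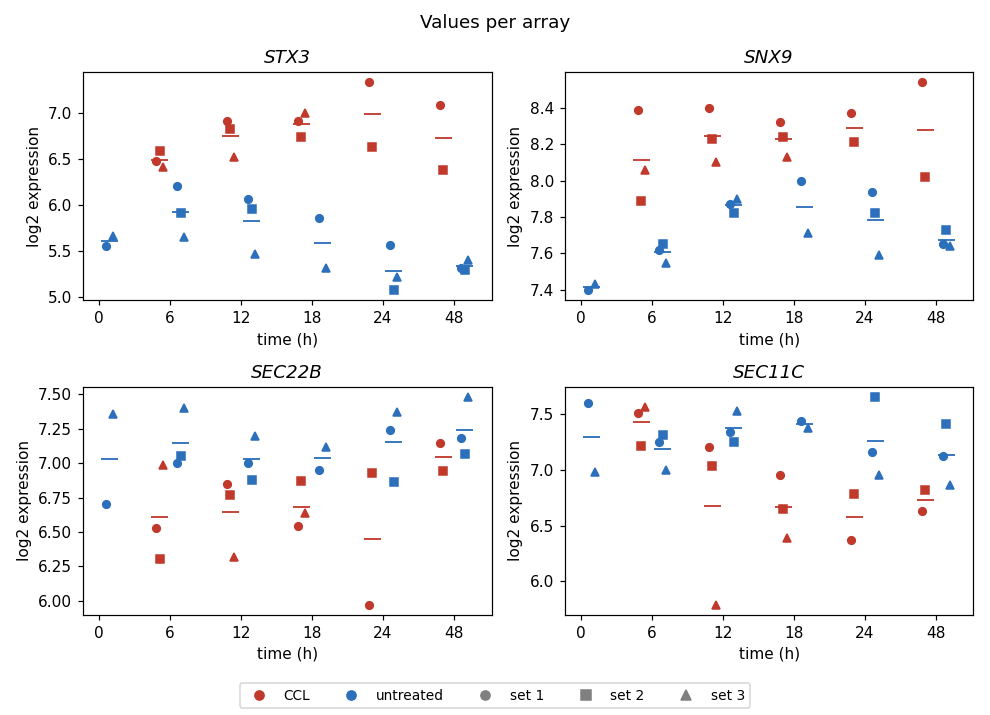
log2 expression (vertical axis) of STX3, SNX9, SEC22B and SEC11C on each array by time in hours, CCL in red and left of untreated in blue; marker shape is the set number and short lines are group means. CCL arrays of STX3 and SNX9 lie above the untreated arrays at each time, and those of SEC11C lie below them from 12 h on.

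At the entry to the secretory route, SEC11C fell. It encodes one of 2 interchangeable catalytic subunits of signal peptidase, which trims the signal peptide of new secretory proteins. At 6 h it read 7.51, 7.21 and 7.56 with CCL and 7.25, 7.31 and 7.0 in untreated cells, which overlapped. At 12 h it read 7.20, 7.03 and 5.79 with CCL and 7.34, 7.25 and 7.53 in untreated cells, and at each time from 12 h on all CCL arrays lay below all untreated ones. The mean over the times was -0.46 ± 0.13 (limma adjusted p = 0.00766), and the single times were not called. Without the 6 arrays that stood apart it was -0.38 (0.118). The other catalytic subunit gene, SEC11A, differed by -0.22 (95% interval -0.42 to -0.01, adjusted p = 0.0911).

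The channel itself showed no called difference. SEC61A1, encoding the pore-forming subunit and the brightest gene of the class at 9.916, differed by -0.05 (95% interval -0.22 to 0.11). SEC61B differed by 0.02 (-0.20 to 0.25), SEC62 by 0.11 (-0.06 to 0.28) and SEC63, a partner of the chaperone BiP, by -0.18 (-0.34 to -0.02, limma adjusted p = 0.0712). Of 6 tested translocon and signal peptidase genes, 1 fell and 0 rose, against 19.2% and 16.7% of all genes tested.

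SEC22B, an R-SNARE of traffic between endoplasmic reticulum and Golgi, ran from 5.97 to 7.15 with CCL (median 6.77) and from 6.86 to 7.48 in untreated cells (median 7.10). It was lower at each of the 5 times and 8 of 13 CCL arrays lay below every untreated array. The mean difference was -0.44 ± 0.11 (limma adjusted p = 0.00363), and without the 6 arrays that stood apart it was -0.36 (0.0543). The inner COPII coat genes SEC23A and SEC23B, at mean levels near the top of the class, differed by 0.03 (95% interval -0.10 to 0.16) and 0.09 (-0.04 to 0.22). The exit-site scaffold SEC16A differed by 0.02 (-0.12 to 0.15), SEC23IP by -0.18 and SEC22C by -0.11. Of 6 tested genes of the COPII group, 1 fell and 0 rose, against 19.2% and 16.7% of all genes tested.

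SEC14L6 belongs to the SEC14-like lipid-binding proteins, which share a name with yeast Sec14 but form no coat. It was dim, from 3.22 to 5.85 with CCL (median 4.05) and from 2.92 to 3.77 in untreated cells (median 3.42). It was tested because 2 CCL arrays exceeded log2 5, so it had to be higher there. From 12 h on all CCL arrays lay above all untreated ones. The mean difference was 0.77 ± 0.16 (limma adjusted p = 0.000649), and at 24 h 1.47 ± 0.37 (0.0169), which became 0.57 (0.815) without CCL 24 h set 1.

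ARF6, the ARF GTPase of the cell surface and endocytic recycling, rose by 0.19 ± 0.07 (limma adjusted p = 0.0343). Its arrays ran from 7.85 to 8.34 with CCL (median 8.15) and from 7.73 to 8.14 in untreated cells (median 7.97), and the call was lost in 12 of 27 omissions of 1 array. The Golgi ARFs were not called. ARF4, the brightest at 9.509, differed by -0.13 (95% interval -0.30 to 0.03), ARF1 by 0.06 (-0.07 to 0.19) and ARF5 by 0.21 (-0.03 to 0.46). ARF3 differed by -0.13 on its brighter probe set (mean level 5.50) and by 0.14 on a dimmer one (3.17), so its direction rests on the probe set.

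Among partners of RAB GTPases, RAB3GAP2, the non-catalytic subunit of a complex that acts on RAB3 and RAB18, ran from 7.01 to 7.45 with CCL (median 7.28) and from 6.58 to 7.23 in untreated cells (median 7.01). It rose by 0.26 ± 0.07 (limma adjusted p = 0.00772), while its catalytic partner RAB3GAP1 differed by 0.09 (95% interval -0.12 to 0.30). The RAB3GAP1 median was lower with CCL (7.31) than in untreated cells (7.40). Its lowest value, 6.12, was on untreated 18 h set 1, an array that stood apart. RAB5IF, named for an interaction with RAB5, rose by 0.21 ± 0.07 (0.0286; 0.0518 without CCL 18 h set 2 and 0.0534 without untreated 12 h set 3). On the deposited values neither RAB3GAP2 nor RAB5IF was called (limma adjusted p = 0.0866 and 0.11). RAB11FIP3 and RAB11FIP4, which link RAB11 recycling endosomes to ARF GTPases, fell by 0.22 and 0.24 on the log2 scale (0.0368 and 0.0239), with overlapping arms, and neither was called on the deposited values (0.121 and 0.174). The RAB11FIP3 call was lost in 13 of 27 omissions of 1 array, and that of RAB11FIP4 without CCL 48 h set 1 (0.0788). The RAB11 effectors RAB11FIP1, RAB11FIP2 and RAB11FIP5 differed by 0.11, -0.09 and 0.12 and were not called, and RAB11FIP1 was tested only through 2 CCL arrays.

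At 18 h RAB11FIP4 read 6.35, 6.45 and 6.20 with CCL and 7.16 and 7.12 in untreated cells, a difference of -0.81 ± 0.19 (limma adjusted p = 0.0129). At 6 h the order was the other way, with 6.79, 6.71 and 6.66 with CCL and 6.51, 5.98 and 6.68 in untreated cells (0.33 ± 0.17, adjusted p = 0.447). The test of a difference between the times was not called (adjusted p = 0.39). On the deposited values the 18 h difference was -0.41 (0.278), and it was not called without untreated 18 h set 1 (0.151) or CCL 18 h set 3 (0.0612).

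A pair of non-coding neighbours of RAB genes fell. RAB30-DT, a divergent transcript of RAB30, ran from 3.07 to 5.08 with CCL (median 4.71) and from 4.59 to 5.58 in untreated cells (median 5.15), lower at each of the 5 times. RAB30-DT was dim, at a mean level of 4.932, and was tested because of its untreated arrays. Its mean difference was -0.58 ± 0.13 (limma adjusted p = 0.0011). At 48 h it was -1.07 ± 0.30 (0.0229), where the CCL arrays were 3.07 and 4.80, and -0.20 (0.996) without the first of them. RAB11B-AS1, an antisense gene of RAB11B, ran from 3.88 to 5.64 with CCL (median 4.53) and from 4.36 to 5.57 in untreated cells (median 5.36), with a mean difference of -0.49 ± 0.16 (0.0158; 0.0588 without CCL 48 h set 1). RAB30 and RAB11B are not analysed here.

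**Figure D4:**
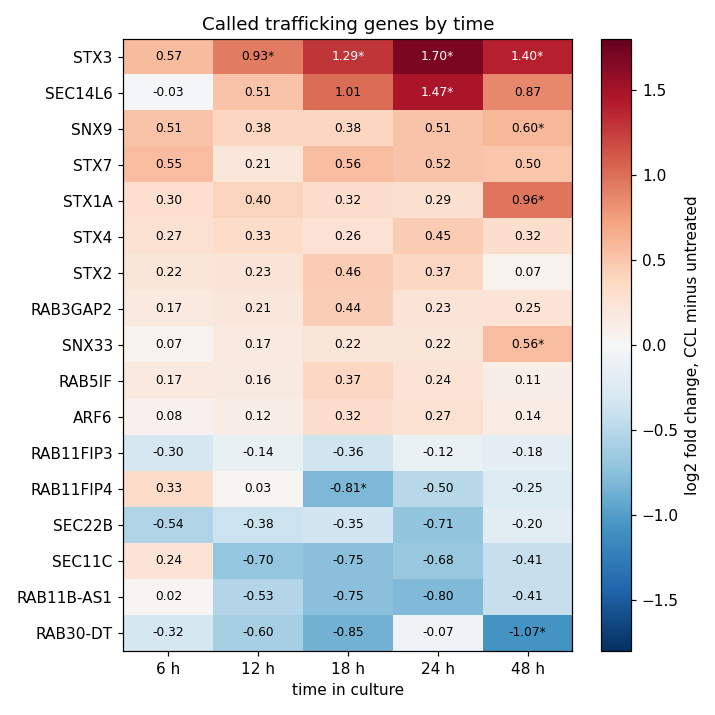
log2 fold change (CCL minus untreated, colour and number) of the 17 genes called in the mean of 5 times, by time; an asterisk marks an adjusted p under 0.05 at that time. STX3 carries 4 of the 10 asterisks.

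**Figure D5:**
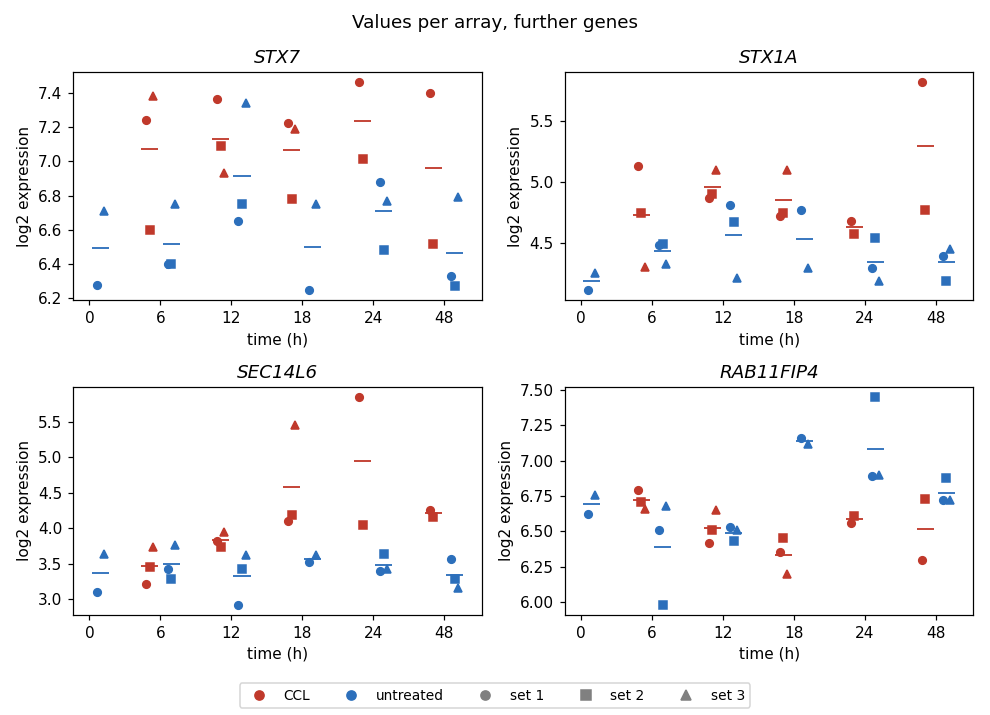
log2 expression (vertical axis) of STX7, STX1A, SEC14L6 and RAB11FIP4 on each array by time in hours, CCL in red and left of untreated in blue; marker shape is the set number and short lines are group means. Set 1 is the higher CCL array at 48 h for STX7 and STX1A, at 7.40 and 5.82.

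At single times few of the 58 genes passed. At 6 h none was called by limma, against 1.35% of all genes tested, and 4 had an unadjusted p under 0.05 (SNX9, STX3, STX7 and SEC22B). All-gene shares at 6 h were 0.927% higher and 0.424% lower. At 12 h 1 was called, STX3, higher, against 2.29% of all genes either way, 1.82% higher and 0.471% lower. At 18 h STX3 rose and RAB11FIP4 fell, against 5.34% of all genes, 3.49% higher and 1.85% lower. On the deposited values at 18 h, where the median of all genes itself was 0.41 higher with CCL, 8 were called higher and 0 lower, against 12.5% of all genes, 12.3% higher and 0.184% lower. At 24 h STX3 and SEC14L6 rose, against 7.21% of all genes, 4.62% higher and 2.59% lower, and the deposited values gave 1 call, against 3.02%, 2.54% higher and 0.475% lower.

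At 48 h 5 of the 58 were called, against 12.6% of all genes tested, 5.2% higher and 7.35% lower. STX3, STX1A, SNX9 and SNX33 rose and RAB30-DT fell. The 2 CCL arrays at 48 h were far apart. STX1A read 5.82 on set 1 and 4.77 on set 2, against 4.39, 4.18 and 4.45 in untreated cells, and SNX9 read 8.54 and 8.02, against 7.65, 7.73 and 7.64. Without CCL 48 h set 1, 1 CCL array was left at that time, and all 5 differences were smaller. They were 1.04 for STX3, 0.43 for STX1A, 0.34 for SNX9, 0.42 for SNX33 and -0.20 for RAB30-DT. The count was 2, 1 and 3 without untreated set 1, 2 or 3. Shares of all genes are not given for these omissions, so the counts do not speak for trafficking genes in particular. Deposited values gave 1 gene higher and 1 lower, against 6.55% of all genes, 1.33% higher and 5.22% lower.

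The effect of CCL was not called as different between the 5 times for any of the 58 genes by limma's F-test (3 had an unadjusted p under 0.05, and 0.0157% of all genes were called). No omission of 1 array gave a call, save that of CCL 48 h set 2, which left 1 CCL array at that time. STX6, of the trans-Golgi network and named after its values were seen, had differences of 0.82 ± 0.34 at 18 h and -0.80 ± 0.34 at 48 h (F-test adjusted p = 0.702). Its lowest arrays were CCL 48 h set 1 (4.85) and untreated 18 h set 1 (4.91), both among the 6 that stood apart.

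In untreated cells alone, 48 h against 6 h, none of the 58 genes was called by limma (4 had an unadjusted p under 0.05), against 0.0157% of all genes. STX3 had the lowest p, with 5.34 ± 0.05 at 48 h and 5.93 ± 0.27 at 6 h (SD, n = 3 each), a difference of -0.59 ± 0.21 (adjusted p = 1). This contrast shares arrays with those of CCL at 6 h and 48 h.

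Other genes of the same pathways were read from 7 lists, to be set against 16.7% of all genes tested higher and 19.2% lower (13.6% and 11% on deposited values). Among RAB regulators outside the symbol rule, 7 of 16 tested rose and 0 fell (median 0.17; 5 and 0 on deposited values), the highest being the exchange factor genes DENND4A (0.70 ± 0.07, limma adjusted p = 8.81e-08) and DENND5A (0.60 ± 0.07, 5.11e-07). Among COPI partners, ARF regulators and golgins, 8 of 25 rose and 4 fell (median 0.05; 4 and 4 on deposited values). CYTH1, encoding an ARF exchange factor, rose by 0.52 ± 0.08 and the golgin gene GOLGA2 by 0.41 ± 0.10, while COG8 (-0.43 ± 0.08) and COG4 (-0.39 ± 0.10) fell. Other subunits of the same tethering complex of the Golgi did otherwise, as COG5 (0.22 ± 0.07, adjusted p = 0.0215) and COG3 (0.21 ± 0.08, 0.0448) rose and COG1, COG2, COG6 and COG7 were not called.

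Of translocon and signal recognition partners, 3 of 12 fell, against 19.2% of all genes tested, and 0 rose (median -0.05; 2 and 0 on deposited values). TRAM2 fell by 0.53 (limma adjusted p = 2.11e-06) and SRP9, of the signal recognition particle, by 0.42 (0.00158). Of COPII partners and cargo receptors, 2 of 23 rose and 3 fell (median 0.05, and 1 and 0 on deposited values). The 23 include ARNT (0.05, not called), which was not listed and came in through an older name of a listed gene. Among those called were TMED1 (0.55 ± 0.10), BCAP31 (0.26 ± 0.10), MCFD2 (-0.23 ± 0.08) and the COPII GTPase gene SAR1A (-0.22 ± 0.08). Of SNAREs and their regulators outside the STX family, 3 of 18 rose and 2 fell (median -0.07; 1 and 1 on deposited values). STXBP2, encoding a Munc18 protein that binds STX3, rose by 0.33 ± 0.09 (0.00589) and BNIP1 by 0.42 ± 0.14, while NSF, the ATPase that takes SNARE complexes apart, fell by 0.46 (0.00412) and VPS45 by 0.45.

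In the list of retromer, CORVET, HOPS and exocyst, 1 of 15 rose (VPS11, 0.42 ± 0.10) and 1 fell (VPS33A, -0.37 ± 0.14), with a median of 0.00 (1 and 0 on deposited values). Without CCL 48 h set 1 the VPS33A value was -0.16 (limma adjusted p = 0.142), and its call was lost in 18 of 27 omissions of 1 array. The SAR1A value without that array was -0.13 (0.174), and its call was lost in 19 of 27 omissions, that of BCAP31 in 15. The clathrin and adaptor list held 35 genes, of which 5 had a named probe set and 4 were tested. Those 4 were PICALM, EPN1, EPN2 and DNM2, so no clathrin chain or AP adaptor subunit was tested. Of them 1 rose, also on deposited values, PICALM (0.35 ± 0.07, limma adjusted p = 0.000467). Without the 6 arrays that stood apart, the calls of STXBP2, BNIP1, NSF, SRP9, BCAP31, MCFD2, SAR1A, COG4, VPS11 and VPS33A were lost.

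The 27 members that were not tested had mean levels from 1.75 to 4.45, and 24 of the 85 exceeded log2 5 on no array. They were RAB6D, RAB3IL1, RAB3IP, COPG2IT1, SEC14L3, SEC14L4, SEC14L5, SEC16B, SEC31B, SEC61A2, SNX16, SNX18, SNX19, SNX20, SNX21, SNX22, SNX24, SNX31, SNX32, STX11, STX19 and 6 pseudogene or non-coding symbols. With no filter on level, 19 of the 85 were called in the mean of the 5 times, against 17.8% of all genes.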

How the data were processed

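Total RNA was labelled as biotinylated cRNA for the arrays, per the labels' protocols. Each probe set has a deposited log2 level. The authors used RMA in Affymetrix Expression Console 1.1, per the submitters' processing notes; build and annotation are not given in the sources used here. Array medians ran from 2.29 to 3.39, unlike those of arrays quantile-normalized as 1 set, and quantile normalization over 53617 probe sets was applied here. All arrays at 12 h, CCL and untreated, had deposited medians from 2.51 to 2.54, against 2.96 to 3.02 in untreated cells at 48 h. Effects of the 12 h time and of this shift cannot be told apart. A symbol was held for 16098 probe sets, and the brightest probe set stood for a gene. A gene was tested if 2 or more arrays exceeded log2 5.

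Group means over the whole set of 29 arrays came from limma 3.58.1 (lmFit, eBayes) in R 4.3.3, with Benjamini-Hochberg adjustment over 6365 genes and a call at 0.05. Errors are standard errors that share 1 spread per gene. Nothing in the labels tells separate cultures from repeated arrays, and p-values then cover the spread between arrays alone, which may be technical. The fit was tested on simulated data, where a log2 change of 0.5 was recovered in 91.2% of changed genes in the mean of 5 times. At single times the simulated share ran from 13.8% (48 h) to 35% (12 h), so few calls there do not mean that changes were absent.

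Members and lists were chosen with earlier results of these data known. Named genes are, per family, up to 4 highest and 4 lowest called in the mean and the brightest, up to 3 each way called at a time, and up to 2 each way per list; others named are described by role, after their values were seen. Deviations of CCL and untreated arrays with equal set and time had r above 0.1 in 9 of 12 pairs, and the own number was highest in 7. The labels do not say what a set is, so the main fit left it out. These values do not show that the arrays are unpaired, and the set as a block is given as an alternative. Alternatives were deposited values, other filters, averaged probe sets, the compared arrays alone, array weights, the set as a block, and omission of arrays.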

Additional observations from a re-analysis of the deposited data

Results flagged for a closer look

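STX8, an endosomal syntaxin, was singled out because its arms separated in opposite ways at different times. All CCL arrays lay above all untreated arrays at 48 h (log2 fold change 0.20 ± 0.16, 2 CCL and 3 untreated arrays) and below them at 18 h (-0.23 ± 0.16, 3 CCL and 2 untreated arrays). Neither was called by limma (adjusted p = 0.437 and 0.481), nor was the F-test over the 5 times (adjusted p = 0.895); the difference between 48 h and 18 h alone was not tested. These separations are those after quantile normalization, and the deposited values did not show them. On the deposited values STX8 at 18 h read 7.63, 7.57 and 7.77 with CCL and 7.35 and 7.68 in untreated cells, so the direction turned (0.14 ± 0.24) and the arms overlapped. At 48 h it read 7.50 and 7.61 with CCL and 7.56, 7.59 and 7.52 in untreated cells, which also overlapped. Groups of 2 or 3 arrays were too small for a test of single distant arrays. The trait was not particular to STX8. After quantile normalization all CCL arrays of SEC23B lay below the untreated ones at 6 h and above them at 18 h. The untested COPG2IT1 and SEC24B-AS1 also separated both ways, and the share of all genes that do so was not counted.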

How the results depend on the processing

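STX3 in the mean of 5 times kept its direction and call under all 8 alternatives and all 27 omissions of 1 array (1.11 to 1.25), as did SNX9 (0.42 to 0.53). The count of 17 called genes in that mean ran from 14 to 21 over the omissions, was 11 on deposited values (24.6% of all genes) and 9 without the 6 arrays with medians apart (23.8%), an alternative chosen after seeing the data. Shares of all genes stand in brackets, but are not given for omissions of 1 array. Deposited values gave 8 calls at 18 h (12.5%), 1 at 24 h (3.02%) and 2 at 48 h (6.55%), and a floor of log2 6 gave 1 at 24 h (9.6%) and 3 at 48 h (15.1%). The compared arrays alone gave 1 at 18 h (2.12%) and 0 at 24 h (0.173%) and 48 h (0.0157%). Array weights gave 1 call at 6 h (3.86%), 13 at 12 h (26%), 1 at 24 h (2.75%), 1 at 48 h (1.46%) and 3 for untreated 48 h against 6 h (1.95%). Without the 6 arrays there were 3 at 12 h (8.96%) and 1 each at 18 h (1.67%), 24 h (0.943%) and 48 h (0.738%). With the set number as a replicate block there were 1 at 6 h (3.17%), 8 at 18 h (11.3%), 4 at 24 h (13.4%) and 19 in the mean (41.5%), and the own number correlated best in 7 of 12 pairs (r from -0.0801 to 0.46). Omitting 1 array gave 0 to 0 at 6 h, 0 to 1 at 12 h, 1 to 5 at 18 h, 1 to 5 at 24 h, 0 to 18 at 48 h, 0 to 3 for the F-test and 0 to 0 for untreated 48 h against 6 h. The 18 h count was 1 without untreated set 1 or CCL set 3 and 5 without untreated set 3, and the 24 h count was 1 without CCL set 1 and 5 without set 2. Among the named genes in the mean of 5 times, direction turned for SNX6 (0.04 on deposited values, 0.02 with the block, -0.11 to 0.05 over omissions), SEC61A1 (0.01 without the 6 arrays, -0.14 to 0.03) and STX8 (-0.10 to 0.01). At single times the signs of the 58 genes moved with the scaling, with 52 higher and 6 lower on deposited values at 18 h (35 and 23 after quantile normalization), 10 and 48 at 48 h (27 and 31) and 22 and 36 at 6 h (31 and 27). The causes were not tested.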
